A study of Mus musculus with 8 samples.

Results

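The stage by source interaction asks which genes change between the preantral and the small antral stage differently in follicles from transplanted female germline stem cells (FGSCs) than in follicles of wild type mice. For each gene it was taken as (SAF-TF minus PF-TF) minus (SAF-WT minus PF-WT) on the log2 scale, and it used 8 of the 8 libraries of the series. SAF-TF are small antral follicles and PF-TF preantral follicles from transplanted FGSCs, and SAF-WT and PF-WT are small antral and preantral follicles of wild type mice. Each of the 4 groups had 2 libraries of polyadenylated RNA from single ovarian follicles of C57BL/6 mice. The sources used here give neither the age of the mice nor the transplant hosts and their treatment, and they leave unstated which cells in a TF follicle were of transplant origin. It is also unstated if 1 or more mice supplied the follicles of a group. The p-values therefore describe the spread between these libraries alone, which may be technical.

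A follicle is an oocyte wrapped in granulosa cells, with a coat of theca cells outside them. In the preantral follicle the oocyte grows, stores maternal transcripts and builds its zona pellucida, and in the antral follicle granulosa cells surround a fluid space and respond to gonadotropins. Luteinizing hormone normally turns the granulosa and theca cells of an ovulated follicle into luteal cells, which leave the cell cycle. Luteal cells bring cholesterol into mitochondria with Star, cut its side chain with Cyp11a1 and finish progesterone with Hsd3b1. In rodents, Akr1c18 turns progesterone into an inactive form, and its level rises when the corpus luteum regresses.

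Promoters are shown for 3 called genes of different roles, in steroid breakdown, antigen presentation and the germ line, so that the motifs counted over all called promoters can be seen in place. Each runs from 250 bases before to 50 after the transcript start in the RefSeq annotation of GRCm38.p6, 5′ to 3′ on the gene's strand. Capitals mark letters that match a searched motif on either strand. In Akr1c18 (chr13:4150597-4150896, minus strand) they mark the letters TTGCNNCAA, searched as a C/EBP type, on the opposite strand. Whether C/EBP factors bind these letters was not tested. In the class II antigen gene H2-Eb1 (chr17:34305617-34305916, plus strand) they mark AAGGTCA, the letters bound by Nr5a receptors, on the opposite strand, and then the class II Y box CTGATTGG. In the germ cell helicase gene Ddx4 (chr13:112652261-112652560, minus strand) they mark CTGATTGG.
Akr1c18: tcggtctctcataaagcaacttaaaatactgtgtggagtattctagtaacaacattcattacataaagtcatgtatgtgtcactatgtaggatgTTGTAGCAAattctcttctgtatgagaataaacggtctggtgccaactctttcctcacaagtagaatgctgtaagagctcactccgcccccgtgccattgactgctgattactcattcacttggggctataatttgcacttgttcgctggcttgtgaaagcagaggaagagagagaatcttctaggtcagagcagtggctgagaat
H2-Eb1: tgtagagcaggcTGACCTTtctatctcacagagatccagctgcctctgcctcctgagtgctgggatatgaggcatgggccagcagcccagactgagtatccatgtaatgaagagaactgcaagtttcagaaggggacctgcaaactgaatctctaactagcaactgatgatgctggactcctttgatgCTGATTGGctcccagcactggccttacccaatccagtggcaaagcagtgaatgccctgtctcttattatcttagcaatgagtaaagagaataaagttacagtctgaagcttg
Ddx4: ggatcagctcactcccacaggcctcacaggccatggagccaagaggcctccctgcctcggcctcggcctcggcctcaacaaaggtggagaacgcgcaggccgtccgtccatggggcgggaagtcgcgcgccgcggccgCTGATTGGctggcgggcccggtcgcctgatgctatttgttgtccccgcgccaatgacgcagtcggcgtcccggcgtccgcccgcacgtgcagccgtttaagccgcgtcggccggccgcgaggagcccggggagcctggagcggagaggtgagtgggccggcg

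Among the genes whose stage effect was more positive in TF, 86 of 118 had such a promoter, and among those more negative in TF, 26 of 44. Both strands were searched, and a gene can have several starts. TTGCNNCAA stood in 3.51% of 114 promoters of the first set, in 2.86% of 35 promoters of the second and in 1.59% of 14508 promoters of all genes tested. AAGGTCA stood in 5.26%, 5.71% and 3.58% of the same 3 sets, and the cAMP response element TGACGTCA in 0.877%, 5.71% and 2.76%. The Y box letters stood in 2.63%, 11.4% and 5.39%, and the oocyte Nobox letters TAATTA in 4.39%, 8.57% and 3.13% and TAATTG in 7.02%, 2.86% and 5.43%. Each share among the called genes rests on 1 to 8 promoters, and a match is a description of the letters only. The promoters shown above each hold a match, while those of the called genes Cyp11a1 and Figla, not shown, hold none.

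Total counts ran from 7654700 in a PF-WT library to 9804822 in a SAF-WT library, over 21997 genes listed for both sources. Of these genes, 17925 passed the filter on low counts. Values are given as CPM, counts scaled to a common library size with TMM factors over all 8 libraries. Means are ± SD over n = 2, and log2 differences are ± the standard error of the edgeR quasi-likelihood fit with the Benjamini-Hochberg adjusted p over all 17925 genes. Replicates correlated at 0.945 to 0.972 on the log2 scale. Per library, 18853 to 20786 genes had a count, and a count of 0 allows up to 3 counts, or 0.306 to 0.392 CPM, for counting error only. CPM are relative to all RNA of a follicle, so fewer cells of a type and less RNA per cell cannot be told apart. The oocyte gene Zp3 and the granulosa gene Inha, an inhibin subunit, were detected in all 8 libraries. Detection alone does not check the stage or source labels. Inha had 1208 and 1693 CPM in SAF-TF and 2895 and 2723 CPM in PF-TF. The WT values were 259 and 346 CPM in SAF-WT and 1272 and 2387 CPM in PF-WT. With stage in WT, 9 of 20 granulosa genes fell, against 22.5% of all genes, and 0 rose, with a median of -1.25. In TF 7 fell, against 25% of all genes, and 1 rose, with a median of -0.28. The theca gene Cyp17a1, an androgen enzyme, was low in the TF follicles of both stages, with 4.18 and 2.82 CPM in SAF-TF and 1.88 and 3.11 CPM in PF-TF, against 47.2 and 41.5 CPM in SAF-WT and 12.1 and 5.1 CPM in PF-WT.

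In the interaction, 162 of 17925 genes passed at an adjusted p of 0.05, which is 0.904% of the genes tested. In 118 genes (0.658%) the stage effect was more positive in TF, and in 44 (0.245%) it was more negative. The difference was 1.58 to 13.2 on the log2 scale for the 118 genes, with a median of 4.17. It was 1.64 to 7.86 in size for the 44, with a median of 3.01. Of the 118 genes, 8 had no count in PF-TF and 1 had none in SAF-WT. The largest size, 13.2, belongs to a gene without a count in PF-TF, so it is a fitted and not a measured size. Over all genes tested the median was 0.057. Without adjustment, 2753 genes had a p under 0.05, 1603 more positive and 1150 more negative in TF.

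**Figure D1:**
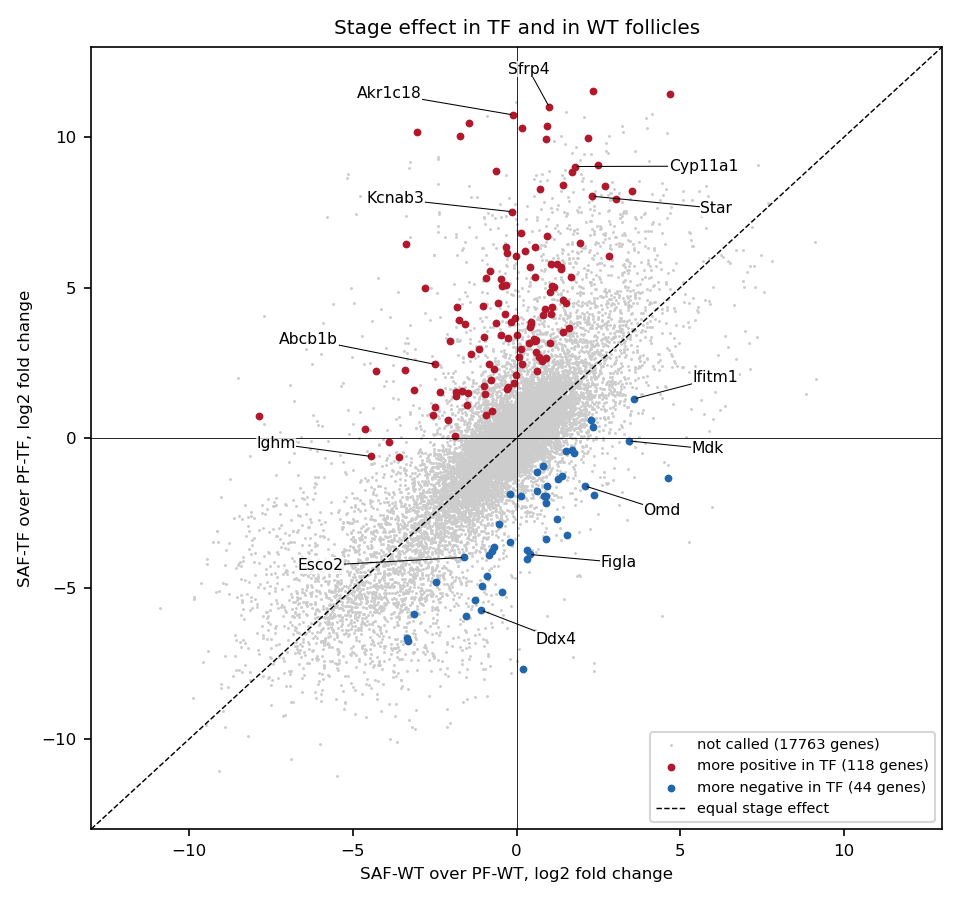
Each point is 1 of 17925 genes, with the log2 fold change of SAF-WT over PF-WT on the x axis and of SAF-TF over PF-TF on the y axis. Red points are the 118 genes with a more positive and blue points the 44 with a more negative stage effect in TF, and the dashed line marks an equal stage effect, from which Akr1c18 lies 10.85 log2 units above and Mdk 3.53 below.

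A more positive difference places a gene's highest mean mostly in SAF-TF or PF-WT by its construction, and a more negative one places the lowest there. Of the 118 genes, 106 (89.8%) had their highest mean in SAF-TF and 11 had it in PF-WT. Their lowest mean was in PF-TF for 82 and in SAF-WT for 31. Of the 44 genes, 36 (81.8%) had their lowest mean in SAF-TF and 6 in PF-WT, and the highest was in PF-TF for 20 and in SAF-WT for 20. Taken as source effects, 98 of the 118 genes were higher in SAF-TF than in SAF-WT and did not pass between PF-TF and PF-WT, and 36 of the 44 were lower in SAF-TF and did not pass in PF. Of all genes, 9.96% passed between SAF-TF and SAF-WT, 4.61% higher and 5.34% lower in SAF-TF. Between PF-TF and PF-WT 0.218% passed, 0.0669% higher and 0.151% lower in PF-TF.

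By stage, 65 of the 118 genes rose with stage in TF and did not pass in WT. Another 25 rose in both sources, 18 rose in TF and fell in WT, and 10 fell in WT without passing in TF. Of the 44 genes, 20 fell in TF and did not pass in WT, 9 fell in TF and rose in WT, 7 fell in both, 6 rose in WT without passing in TF, and 2 rose in both. Of all genes, 43.2% passed with stage in TF, 18.2% rising and 25% falling, and 35.1% passed in WT, 12.7% rising and 22.5% falling.

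The luteal list held the most called members among the 51 gene lists examined, and 3 of them also belong to progesterone synthesis. The lists were chosen with earlier results of these data known, so this rank may be partly set by that choice. Over all genes tested, 0.658% were called more positive and 0.245% more negative in TF. Of 17 luteal genes, 9 were called more positive in TF and 0 more negative, with a median of 3.55 against 0.057 over all genes. All 17 had positive values, and with any 1 library left out 5 to 11 were called, the fewest without SAF-WT replicate 2. The summed level of the list was 42540 and 30650 CPM in SAF-TF and 1993 and 3363 CPM in PF-TF, against 4812 and 4090 CPM in SAF-WT and 1209 and 1400 CPM in PF-WT. In this sum, every SAF-TF library was above all 6 others. A sum follows its most abundant members and does not give the level of each gene in the list.

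Akr1c18, the progesterone-inactivating enzyme (chromosome 13, 4132615 to 4150646 of GRCm38), had 10527 and 11346 CPM in SAF-TF and 6.31 and 6.42 CPM in PF-TF, against 6.2 and 6.87 CPM in SAF-WT and 7.09 and 6.99 CPM in PF-WT. It was high in both SAF-TF libraries and level over the other 6, with 54 to 64 counts in each of those. The stage effect was 10.74 ± 0.24 in TF (adjusted p = 3.15e-08) and -0.11 ± 0.19 in WT (adjusted p = 0.681), and their difference was 10.85 ± 0.29 (adjusted p = 1.36e-07). It passed with each library left out and in all 8 other settings. Reads of the related Akr1c genes may be split between copies. Akr1c13, of the same family, stood at 1.01 ± 0.69 (adjusted p = 0.54).

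Star, which carries cholesterol into mitochondria (chromosome 8, 25808474 to 25815982), had 1289 and 866 CPM in SAF-TF and 4.98 and 3.21 CPM in PF-TF, against 22 and 32.2 CPM in SAF-WT and 7.75 and 3.33 CPM in PF-WT. It rose with stage in both sources, by 8.04 ± 0.49 in TF (adjusted p = 1.78e-05) and 2.31 ± 0.40 in WT (adjusted p = 0.00228). The groups SAF-TF and SAF-WT did not overlap, and the stage effects differed by 5.73 ± 0.58 (adjusted p = 0.00429). Cyp11a1, the side-chain cleavage enzyme (chromosome 9, 57998024 to 58027031), had 7838 and 2643 CPM in SAF-TF and 6.76 and 13.2 CPM in PF-TF, against 169 and 164 CPM in SAF-WT and 65.4 and 31.4 CPM in PF-WT. The 2 SAF-TF follicles were far apart, yet both were above every other library, and the stage effects differed by 7.24 ± 0.78 (adjusted p = 0.00488). Fdx1, the ferredoxin that hands electrons to Cyp11a1, had 4156 and 3194 CPM in SAF-TF and 67 and 112 CPM in PF-TF, against 502 and 496 CPM in SAF-WT and 179.8 and 135 CPM in PF-WT. Its stage effect was 5.36 ± 0.32 in TF and 1.67 ± 0.27 in WT, a difference of 3.69 ± 0.39 (adjusted p = 0.00481).

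Other steps of the pathway did not pass. Hsd3b1, which makes progesterone from pregnenolone, had 15049 and 10489 CPM in SAF-TF and 1609 and 2852 CPM in PF-TF, against 3775 and 3080 CPM in SAF-WT and 617 and 945 CPM in PF-WT. It rose with stage in both sources, and the stage effects differed by 0.38 ± 0.44 (adjusted p = 0.746). Reads of Hsd3b1 may be split with other Hsd3b copies. Fdxr, the reductase that charges ferredoxin (2.47 ± 0.53, adjusted p = 0.0697), did not pass either. In all, 3 of 11 progesterone synthesis genes were called, all more positive in TF, against 0.658% of all genes tested. The list median was 1.06. None of the 21 genes listed here under cholesterol synthesis was called with edgeR, although 20 had positive values, with a median of 1.52. DESeq2 called 3 of them. The smallest p in the list was that of Hmgcs1, the synthase that feeds the mevalonate pathway (1.69 ± 0.37, adjusted p = 0.0729). The list leaves out Hsd17b7, which also acts in cholesterol synthesis and was called (3.29 ± 0.55, adjusted p = 0.0295).

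Among receptors that luteal cells carry, Prlr and Ptgfr were called. Of 11 gonadotropin, prolactin and growth hormone receptor genes, 1 was called, against 0.658% of all genes tested. In that list 6 values were positive and 5 negative, with a median of 0.49. Of 17 prostaglandin genes, 1 was called, with 8 positive and 9 negative values and a median of -0.07. Prlr, the prolactin receptor, had 584 and 291 CPM in SAF-TF and 19.7 and 31.4 CPM in PF-TF, against 72.7 and 51.3 CPM in SAF-WT and 41.4 and 29.2 CPM in PF-WT. It was higher in SAF-TF than in the other 6 libraries, with a difference of 3.28 ± 0.53 (adjusted p = 0.0269). Ptgfr, the prostaglandin F receptor through which luteal regression is triggered, had 291 and 246 CPM in SAF-TF and 0.665 and 0.903 CPM in PF-TF, against 4.02 and 1.66 CPM in SAF-WT and 0.657 and 0.222 CPM in PF-WT. It rose in both sources, far more in TF, and the stage effects differed by 5.68 ± 1.00 (adjusted p = 0.0349). Lhcgr, the receptor of luteinizing hormone, rose by 7.35 ± 0.62 in TF and 3.81 ± 0.53 in WT, and the difference of 3.55 ± 0.74 did not pass (adjusted p = 0.0641). Cyp19a1, the aromatase that makes estradiol, stood at 4.01 ± 0.97 (adjusted p = 0.0939). The receptor of follicle-stimulating hormone, Fshr, stood at 1.3 ± 0.56 (adjusted p = 0.304), and Cyp17a1 at -1.89 ± 0.67 (adjusted p = 0.215), so that none of the 3 passed.

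Sfrp4, a secreted Wnt antagonist of the corpus luteum, had 1294 and 709.5 CPM in SAF-TF and 0.222 and 0.702 CPM in PF-TF, against 2.64 and 2.37 CPM in SAF-WT and 0.657 and 1.78 CPM in PF-WT. It was near its floor in PF-TF and high in both SAF-TF libraries, and the stage effects differed by 10.01 ± 0.87 (adjusted p = 0.0017). Bhmt and Mrap are named here after their values were seen. Bhmt, a methyltransferase that uses betaine, had 1446 counts in SAF-TF and 3 in PF-TF, a ratio of 509.8 with a counting interval of 174.1 to 2475, and a difference of stage effects of 9.5 ± 1.10 (adjusted p = 0.0068). Hsd17b7, an enzyme of estradiol and cholesterol synthesis that the rodent corpus luteum makes, had 229.9 and 133 CPM in SAF-TF and 34.6 and 31.9 CPM in PF-TF, against 14.6 and 13.5 CPM in SAF-WT and 15.5 and 34.8 CPM in PF-WT. Its difference was 3.29 ± 0.55 (adjusted p = 0.0295). Mrap, the accessory protein of the corticotropin receptor, had 309 and 197 CPM in SAF-TF and 21.3 and 29.2 CPM in PF-TF, against 22.6 and 26.8 CPM in SAF-WT and 34.3 and 25.1 CPM in PF-WT, and a difference of 3.59 ± 0.42 (adjusted p = 0.0068). Plin4, the called member of 26 genes of cholesterol uptake and lipid storage and a lipid droplet coat protein, had no count in PF-TF and 336 in SAF-TF, at least 59.23-fold higher in SAF-TF against a floor of 3 counts per library.

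**Figure D2:**
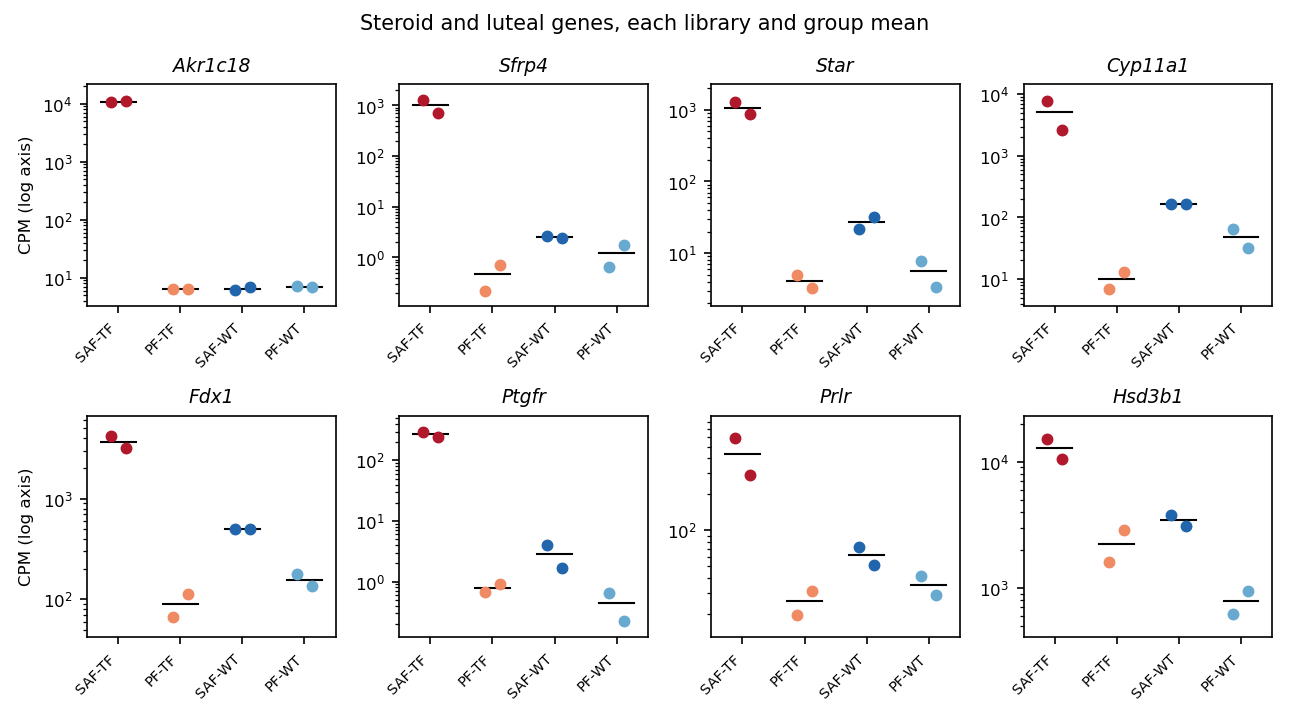
Points are the CPM of each library on a log axis and bars the mean of the 2 libraries of a group, for 8 steroid and luteal genes. SAF-TF lies above the other groups in each panel, with Akr1c18 at a mean of 10937 ± 579 CPM (SD), while Hsd3b1 is higher in SAF than in PF follicles of both sources.

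Genes of macrophages, antigen presentation and antibody-making cells were also called in the positive direction only, and they moved with single libraries. Of 21 macrophage genes, 3 were called more positive in TF, against 0.658% of all genes tested. All 21 had positive values, with a median of 3.69, or 3.53 with the member that had no count in PF-TF set to the floor. The called members were C1qb, a complement subunit, Cd68, a lysosomal protein of macrophages, and Emr1, the F4/80 antigen. The summed level of the 21 genes was 1115 and 1735 CPM in SAF-TF and 77.4 and 35.8 CPM in PF-TF, against 446.6 and 542.6 CPM in SAF-WT and 612.7 and 124.4 CPM in PF-WT. PF-WT replicate 1 stood well above replicate 2. Without PF-WT replicate 1 the median was 2.01 and 1 gene was called, without replicate 2 it was 4.42 and 9 were called, and without any 1 of the TF or SAF-WT libraries 0 were called. DESeq2 called 11 and limma-voom 1. The part of the mix of cells in these values was not tested.

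C1qb had 135 and 224 CPM in SAF-TF and 17.1 and 16.5 CPM in PF-TF, against 31 and 47.2 CPM in SAF-WT and 53.6 and 24 CPM in PF-WT. It was highest in SAF-TF and lowest in PF-TF, and the stage effects differed by 3.41 ± 0.57 (adjusted p = 0.03). Cd68 had 41.9 and 93.8 CPM in SAF-TF and 1.66 and 1.61 CPM in PF-TF, against 11.6 and 10.9 CPM in SAF-WT and 11.9 and 3.55 CPM in PF-WT, with a difference of 4.82 ± 0.82 (adjusted p = 0.0316). Emr1 had 17.6 and 30.1 CPM in SAF-TF and 0.554 and 0.401 CPM in PF-TF, against 6.88 and 6.99 CPM in SAF-WT and 3.94 and 1.55 CPM in PF-WT, and a difference of 4.26 ± 0.79 (adjusted p = 0.0432). In WT neither C1qb, Cd68 nor Emr1 passed with stage.

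Of 8 tested MHC class II genes, which present peptides to helper T cells, 2 were called more positive in TF, against 0.658% of all genes tested. The list held 10 genes, of which 8 passed the filter on low counts. All 8 had positive values, with a median of 2.50. Their summed level was 570.2 and 471.2 CPM in SAF-TF and 64.8 and 72.6 CPM in PF-TF, against 18.7 and 38.3 CPM in SAF-WT and 96.8 and 41.4 CPM in PF-WT. H2-Ab1, a class II beta chain (chromosome 17, 34263227 to 34269418), had 53.7 and 45.8 CPM in SAF-TF and 1.22 and 1.3 CPM in PF-TF, against 2.64 and 5.09 CPM in SAF-WT and 7.22 and 3.66 CPM in PF-WT. Its SAF-TF libraries were above all others, while PF-TF was lowest, and the stage effects differed by 5.77 ± 0.66 (adjusted p = 0.0067), which passed with each library left out. H2-Eb1, whose promoter is shown above, had 57.2 and 43.2 CPM in SAF-TF and 2.33 and 2.41 CPM in PF-TF, against 2.41 and 4.03 CPM in SAF-WT and 10.4 and 3.0 CPM in PF-WT, with a difference of 5.44 ± 0.79 (adjusted p = 0.02). The invariant chain gene Cd74 had 337 and 280.2 CPM in SAF-TF and 10.5 and 0.201 CPM in PF-TF, against 4.24 and 12.4 CPM in SAF-WT and 39.3 and 10.1 CPM in PF-WT, and its difference of 7.42 ± 1.48 did not pass (adjusted p = 0.0577). Class II genes are near-identical in places, so their reads may be split between copies. Psmb8, a proteasome subunit that cuts peptides for MHC class I and the called member of 14 class I genes, had 72.2 and 70.3 CPM in SAF-TF and 8.42 and 7.53 CPM in PF-TF, against 25.5 and 28.2 CPM in SAF-WT and 15.2 and 11.2 CPM in PF-WT, with a difference of 2.13 ± 0.38 (adjusted p = 0.038).

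Of 10 tested lymphocyte and plasma cell genes, 4 were called, all more positive in TF, against 0.658% of all genes tested. The list held 17 genes, of which 16 were listed for both sources and 10 passed the filter on low counts. The list median was 4.46, or 4.14 with the 3 members that had a group without counts set to the floor. Ighm, the heavy chain of IgM, had 11.8 and 11.4 CPM in SAF-TF and 14.4 and 21 CPM in PF-TF, against 1.38 and 1.66 CPM in SAF-WT and 47.1 and 19.9 CPM in PF-WT. It differed from the pattern above, since it fell with stage in WT by 4.45 on the log2 scale and did not pass in TF, with a difference of 3.84 ± 0.65 (adjusted p = 0.0313). Igkc, an antibody light chain, had no count in PF-TF and 361 in SAF-TF, at least 63.64-fold higher in SAF-TF, and Igj, the chain that joins antibodies, had 16.6 and 19.2 CPM in SAF-TF and 1.33 and 0.702 CPM in PF-TF, against 0.459 and 0.948 CPM in SAF-WT and 0.919 and 0.888 CPM in PF-WT. Ly6d, a B cell surface antigen, had 11.1 and 9.7 CPM in SAF-TF and 0.111 and 0.10 CPM in PF-TF, against 0.229 and 1.42 CPM in SAF-WT and 15.9 and 1.55 CPM in PF-WT, and so the PF-WT follicles were far apart. Without either SAF-TF library, either SAF-WT library or PF-TF replicate 1, 0 of the 10 were called. Without PF-TF replicate 2, PF-WT replicate 1 and PF-WT replicate 2, 1, 3 and 5 were called. The counts were 0 with limma-voom and 6 with DESeq2. The list's summed level was 70.6 and 81.8 CPM in SAF-TF and 37.3 and 47 CPM in PF-TF, against 25.9 and 26.7 CPM in SAF-WT and 172.3 and 66 CPM in PF-WT.

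A few genes that hold back the cell cycle had a more positive stage effect in TF, while 30 of 30 mitosis genes had a negative value. Gadd45a, a stress-induced brake on the cell cycle, had 116 and 117 CPM in SAF-TF and 9.75 and 8.43 CPM in PF-TF, against 28.7 and 23.3 CPM in SAF-WT and 20.2 and 19.3 CPM in PF-WT. It was high in SAF-TF, and the stage effects differed by 3.28 ± 0.34 (adjusted p = 0.00481). Cdkn1a, the cyclin-dependent kinase inhibitor p21, had 122 and 95.8 CPM in SAF-TF and 1.44 and 2.51 CPM in PF-TF, against 4.36 and 7.94 CPM in SAF-WT and 3.41 and 1.89 CPM in PF-WT, with a difference of 4.55 ± 0.62 (adjusted p = 0.0158). Gadd45b, a relative of Gadd45a, rose in TF by 2.81 ± 0.45 and fell in WT by 1.40 on the log2 scale, a difference of 4.21 ± 0.62 (adjusted p = 0.0215). These were 3 of 17 genes of cell cycle inhibitors, D cyclins and p53, against 0.658% of all genes tested. The median of the 17 was 0.78. Cdkn1b, the inhibitor p27 that granulosa cells gain as they luteinize, stood at 2.71 ± 0.63 (adjusted p = 0.0872).

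Of 30 mitosis genes, 1 was called more negative in TF, against 0.245% of all genes tested. All 30 had negative values, with a median of -0.87. In TF 26 of the 30 fell with stage, against 25% of all genes, and in WT 16 fell, against 22.5%. Between small antral follicles, 19 were lower in SAF-TF than in SAF-WT, against 5.34% of all genes. Their summed level was 1418 and 2129 CPM in SAF-TF and 6730 and 6116 CPM in PF-TF, against 4266 and 4068 CPM in SAF-WT and 7573 and 7044 CPM in PF-WT. Ndc80, a kinetochore protein, had 23.4 and 28.1 CPM in SAF-TF and 102 and 83.5 CPM in PF-TF, against 82.1 and 94.2 CPM in SAF-WT and 101 and 102 CPM in PF-WT. It was low only in SAF-TF, and the stage effects differed by -1.64 ± 0.31 (adjusted p = 0.0425), though with any 1 library left out it did not pass. DESeq2 called 7 of the 30. Esco2, which acetylates cohesin in S phase, had 31.1 and 40.0 CPM in SAF-TF and 568 and 547 CPM in PF-TF, against 136 and 123 CPM in SAF-WT and 405 and 388 CPM in PF-WT. It fell in both sources, more in TF, with a difference of -2.36 ± 0.28 (adjusted p = 0.0068) that passed with each library left out. Ccne2, a cyclin of S phase entry (-2.31 ± 0.44, adjusted p = 0.0493), and the chromatin protein gene Hmgb2 (-2.09 ± 0.33, adjusted p = 0.0269) were called in the same direction.

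Transcription factors of the ovulatory response were partly called. Of 19 cumulus and ovulatory genes, 3 were more positive in TF, against 0.658% of all genes tested. The list median was -0.09, and the members that mark cumulus matrix did not pass. Runx1, which the ovulatory signal induces in granulosa cells, had 78.4 and 48.4 CPM in SAF-TF and 21.3 and 23.3 CPM in PF-TF, against 23.2 and 29.4 CPM in SAF-WT and 90.9 and 57.5 CPM in PF-WT. It was high in SAF-TF and PF-WT and low in the other groups, and so rose with stage in TF and fell in WT, with a difference of 3.0 ± 0.46 (adjusted p = 0.0226). Runx2, which luteinizing granulosa cells express, had 71.9 and 48 CPM in SAF-TF and 4.21 and 4.11 CPM in PF-TF, against 2.98 and 1.18 CPM in SAF-WT and 2.23 and 2.44 CPM in PF-WT, with a difference of 4.01 ± 0.63 (adjusted p = 0.0256). Cebpb, a C/EBP factor that granulosa cells need to luteinize in mice, had 135 and 60.0 CPM in SAF-TF and 62.8 and 52 CPM in PF-TF, against 6.08 and 10.9 CPM in SAF-WT and 65.7 and 35.3 CPM in PF-WT. Its low group was SAF-WT, and it differed by 3.33 ± 0.64 (adjusted p = 0.0479), not passing in TF alone (adjusted p = 0.181). Fos, an immediate early factor and the called member of 16 such genes, had 11 and 18.7 CPM in SAF-TF and 0.111 and 0.301 CPM in PF-TF, against 4.93 and 7.23 CPM in SAF-WT and 8.54 and 3.88 CPM in PF-WT. It was near its floor in PF-TF, and it differed by 6.08 ± 0.91 (adjusted p = 0.0215).

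Metabolic and stress genes were called in small numbers. Of 25 hypoxia and glycolysis genes, 2 were more positive in TF, against 0.658% of all genes tested. In this list 21 had positive values, with a median of 1.14. Bnip3, a mitochondrial protein that hypoxia induces, had 747 and 665 CPM in SAF-TF and 163 and 168 CPM in PF-TF, against 289 and 239 CPM in SAF-WT and 289 and 248 CPM in PF-WT. SAF-TF was above all other libraries, with a difference of 2.12 ± 0.27 (adjusted p = 0.0117). Ldha, lactate dehydrogenase A, had 244 and 242 CPM in SAF-TF and 142 and 119.8 CPM in PF-TF, against 177 and 175 CPM in SAF-WT and 247 and 348 CPM in PF-WT. It rose in TF and fell in WT, with a difference of 1.65 ± 0.30 (adjusted p = 0.0399). Gpx3, a secreted glutathione peroxidase, had 661 and 299.6 CPM in SAF-TF and 57.9 and 35 CPM in PF-TF, against 43 and 59.1 CPM in SAF-WT and 142 and 63.3 CPM in PF-WT, and a difference of 4.38 ± 0.67 (adjusted p = 0.0224). Hao2, a peroxisomal hydroxy acid oxidase, had 1273 and 932 CPM in SAF-TF and 16.9 and 16.1 CPM in PF-TF, against 239.8 and 227 CPM in SAF-WT and 39.3 and 26.6 CPM in PF-WT. It rose in both sources, more in TF, with a difference of 3.23 ± 0.35 (adjusted p = 0.00486) that passed with each library left out. Kcnab3, a potassium channel subunit, had 159 and 138 CPM in SAF-TF and 0.997 and 0.602 CPM in PF-TF, against 1.49 and 2.49 CPM in SAF-WT and 1.31 and 3.0 CPM in PF-WT, and a difference of 7.66 ± 0.65 (adjusted p = 0.0017).

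Calcium-binding S100a proteins were a family looked at after its values were seen. Of 9 tested S100a genes, 4 were called more positive in TF and 0 more negative, against 0.658% and 0.245% of all genes tested. S100a4 had 174 and 268 CPM in SAF-TF and 0.665 and 0.602 CPM in PF-TF, against 10.1 and 7.7 CPM in SAF-WT and 5.25 and 1.55 CPM in PF-WT. It was high in SAF-TF and near its floor in PF-TF, with a difference of 7.01 ± 0.75 (adjusted p = 0.00486). S100a6 had 562 and 706 CPM in SAF-TF and 2.55 and 2.51 CPM in PF-TF, against 162 and 186 CPM in SAF-WT and 33 and 9.88 CPM in PF-WT, with a difference of 4.93 ± 0.66 (adjusted p = 0.0136). S100a3 had no count in PF-TF and 250 in SAF-TF, at least 44.07-fold higher in SAF-TF, and S100a16 differed by 2.1 ± 0.39 (adjusted p = 0.0447). The other 5 did not pass.

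In 47 genes the stage effects passed in TF and in WT in opposite directions, 34 rising in TF and falling in WT and 13 the reverse. Of the 34 genes 18 were called in the interaction, and of the 13 genes 9 were. Abcb1b, a drug efflux pump, had 162 and 126 CPM in SAF-TF and 31.2 and 21.7 CPM in PF-TF, against 6.54 and 5.33 CPM in SAF-WT and 34.1 and 32.3 CPM in PF-WT. It was highest in SAF-TF and lowest in SAF-WT, with both PF groups between, and the stage effects of 2.45 ± 0.27 in TF and -2.48 ± 0.29 in WT differed by 4.93 ± 0.40 (adjusted p = 0.00133). Rab33a, a small GTPase, had 76.4 and 60.9 CPM in SAF-TF and 7.09 and 10.3 CPM in PF-TF, against 11.6 and 12.1 CPM in SAF-WT and 32.2 and 20.6 CPM in PF-WT, with a difference of 4.13 ± 0.47 (adjusted p = 0.0065). Mbp, the myelin basic protein gene, also rose in TF and fell in WT, with a difference of 5.66 ± 0.87 (adjusted p = 0.0227).

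In the reverse direction, Scoc, a coiled-coil protein of the Golgi, had 23.2 and 25.6 CPM in SAF-TF and 62.5 and 63.1 CPM in PF-TF, against 302 and 239.9 CPM in SAF-WT and 127 and 101 CPM in PF-WT. It was lowest in SAF-TF and highest in SAF-WT, and the stage effects of -1.36 ± 0.22 in TF and 1.25 ± 0.21 in WT differed by -2.61 ± 0.31 (adjusted p = 0.0068). Its reads may be split with a pseudogene, Gm7335, which was called in the other direction and had 98.2 and 118 CPM in SAF-TF and 2.22 and 2.01 CPM in PF-TF, against 8.26 and 7.11 CPM in SAF-WT and 3.28 and 2.77 CPM in PF-WT. The sum of both was 121 and 144 CPM in SAF-TF and 64.7 and 65.1 CPM in PF-TF, against 310.1 and 247 CPM in SAF-WT and 130.4 and 103 CPM in PF-WT, higher in SAF than in PF in both sources, so no fall of Scoc in TF is drawn from its own row. Omd, a keratan sulfate proteoglycan, had 26.7 and 54.7 CPM in SAF-TF and 102 and 143 CPM in PF-TF, against 436 and 294 CPM in SAF-WT and 75.8 and 95.1 CPM in PF-WT. It differed by -3.69 ± 0.50 (adjusted p = 0.0146) and passed with each library left out. Ccdc3, a secreted protein (-2.65 ± 0.51, adjusted p = 0.0477), Wtap, a subunit of the RNA methylation complex (-1.77 ± 0.31, adjusted p = 0.0361), Fam69a (-1.73 ± 0.30, adjusted p = 0.0341) and the imprinted gene Zdbf2 (-4.25 ± 0.74, adjusted p = 0.0345) fell in TF and rose in WT.

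Among the other genes with a more negative stage effect in TF, Mdk had the smallest p. Mdk encodes midkine, a growth factor that binds heparin (chromosome 2, 91929805 to 91932297), and had 83 and 70.7 CPM in SAF-TF and 75.1 and 89.2 CPM in PF-TF, against 335 and 361 CPM in SAF-WT and 31.4 and 33 CPM in PF-WT. Its high group was SAF-WT and its TF groups overlapped. The stage effect was -0.1 ± 0.20 in TF (adjusted p = 0.72) and 3.43 ± 0.21 in WT (adjusted p = 4.5e-05), a difference of -3.53 ± 0.28 (adjusted p = 0.00133) that passed with each library left out. Ifitm1, an interferon-induced membrane protein, had 64.5 and 83.9 CPM in SAF-TF and 36 and 24.3 CPM in PF-TF, against 484 and 413 CPM in SAF-WT and 31.8 and 42.6 CPM in PF-WT. It rose in both sources, less in TF, with a difference of -2.29 ± 0.37 (adjusted p = 0.0269). Ptplad2, which takes part in making very long fatty acids (-2.23 ± 0.30, adjusted p = 0.0136), and Bst2, an antiviral tether (-2.08 ± 0.37, adjusted p = 0.038), rose with stage in WT and did not pass in TF. Bst2 was the called member of 22 interferon-stimulated genes, and the list as a whole went the other way, with 18 positive values and a median of 1.75, or 1.51 with a member at 0 set to the floor. In TF 15 of the 22 rose with stage, against 18.2% of all genes, and in WT 8 rose, against 12.7%. DESeq2 called 6 of the 22 more positive and 1 more negative.

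Other genes fell mainly in TF. Xdh, the xanthine dehydrogenase of purine breakdown, had 3.08 and 1.92 CPM in SAF-TF and 82.5 and 126 CPM in PF-TF, against 44.7 and 69.2 CPM in SAF-WT and 187 and 87.1 CPM in PF-WT. It was low in both SAF-TF libraries, with a difference of -4.11 ± 0.61 (adjusted p = 0.0215). Cntn4, a neural adhesion protein, had 4.18 and 5.53 CPM in SAF-TF and 79.1 and 64.3 CPM in PF-TF, against 8.37 and 13 CPM in SAF-WT and 18.3 and 20.5 CPM in PF-WT, and differed by -3.02 ± 0.45 (adjusted p = 0.0222). Mest, an imprinted gene expressed from the paternal copy, had 7.04 and 5.98 CPM in SAF-TF and 90.6 and 52.1 CPM in PF-TF, against 23.6 and 45 CPM in SAF-WT and 45.8 and 33.6 CPM in PF-WT, and differed by -3.24 ± 0.55 (adjusted p = 0.0316). With Zdbf2 it was 1 of 2 called among 27 imprinted genes, whose median was 0.054. Kdm1b, the histone demethylase that oocytes need to set maternal imprints in mice, had 15.4 and 12.9 CPM in SAF-TF and 215 and 131 CPM in PF-TF, against 31.4 and 43.2 CPM in SAF-WT and 39.4 and 80.2 CPM in PF-WT, and differed by -2.93 ± 0.53 (adjusted p = 0.038). Col4a3, a collagen of basement membranes, was called as well (-2.84 ± 0.54, adjusted p = 0.0458).

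Oocyte genes had negative values in most lists, but few members passed. Ddx4, the germ cell helicase whose promoter is shown above (chromosome 13, 112598333 to 112652633), had 3.74 and 2.48 CPM in SAF-TF and 191 and 139 CPM in PF-TF, against 6.77 and 16.7 CPM in SAF-WT and 13.8 and 35.6 CPM in PF-WT. PF-TF was highest and SAF-TF lowest, and the stage effects of -5.72 ± 0.60 in TF and -1.08 ± 0.50 in WT differed by -4.64 ± 0.75 (adjusted p = 0.0269). It was the called member of 17 germ granule and piRNA genes, whose median was -1.48. With limma-voom 0 of the 17 were called, and without SAF-WT replicate 2 the list median was -0.62. Figla, the transcription factor that switches on zona genes (chromosome 6, 86016494 to 86020996), had 4.29 and 2.93 CPM in SAF-TF and 51.2 and 55 CPM in PF-TF, against 13.4 and 54 CPM in SAF-WT and 27.2 and 23.7 CPM in PF-WT. The SAF-WT libraries were far apart, the difference was -4.28 ± 0.78 (adjusted p = 0.0393), and it passed in 1 of the 8 fits with a library left out. It was the called member of 11 oocyte transcription factors, with a median of -2.13, and Nobox, another of them, did not pass (-2.13 ± 0.83, adjusted p = 0.258).

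Genes of the zona pellucida and of oocyte growth factors fell with stage in both sources. Of 12 oocyte secreted and zona genes, 12 fell in TF and 10 in WT, against 25% and 22.5% of all genes tested. In the interaction 0 passed with edgeR, where 0.245% of all genes were called more negative. Of the 12, 11 had negative values, with a median of -0.76. DESeq2 called 1. Zp3, which binds sperm in the zona, had 101 and 29.2 CPM in SAF-TF and 2422 and 2712 CPM in PF-TF, against 82.6 and 852 CPM in SAF-WT and 1208 and 952 CPM in PF-WT. SAF-WT replicate 2 held about as much Zp3 as the PF-WT follicles, and the difference of -4.09 ± 1.20 did not pass (adjusted p = 0.146). Zp2, another zona protein, differed by -4.29 ± 1.17 (adjusted p = 0.125), and Gdf9, a growth factor that the oocyte secretes, by -2.4 ± 0.67 (adjusted p = 0.134). Bmp15, its partner, had stage effects of -6.21 ± 0.39 in TF and -5.14 ± 0.37 in WT, and the difference of -1.07 ± 0.45 did not pass (adjusted p = 0.292).

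The oocyte counts depended on the small antral WT follicles. The summed level of the 12 oocyte secreted and zona genes was 517.3 and 299.8 CPM in SAF-TF and 13870 and 12560 CPM in PF-TF, against 312.3 and 1824 CPM in SAF-WT and 7409 and 6091 CPM in PF-WT. Without SAF-WT replicate 1, 4 of these 12, 2 of 11 oocyte transcription factors and 6 of 18 maternal effect genes were called more negative in TF. Without SAF-WT replicate 2, 0 of each list were called, and the list medians were -0.35, -1.02 and -0.61. With all libraries, 0 of 18 maternal effect genes passed with edgeR and 4 with DESeq2, with a median of -1.72. How much oocyte RNA each library held was not tested apart from these genes.

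**Figure D3:**
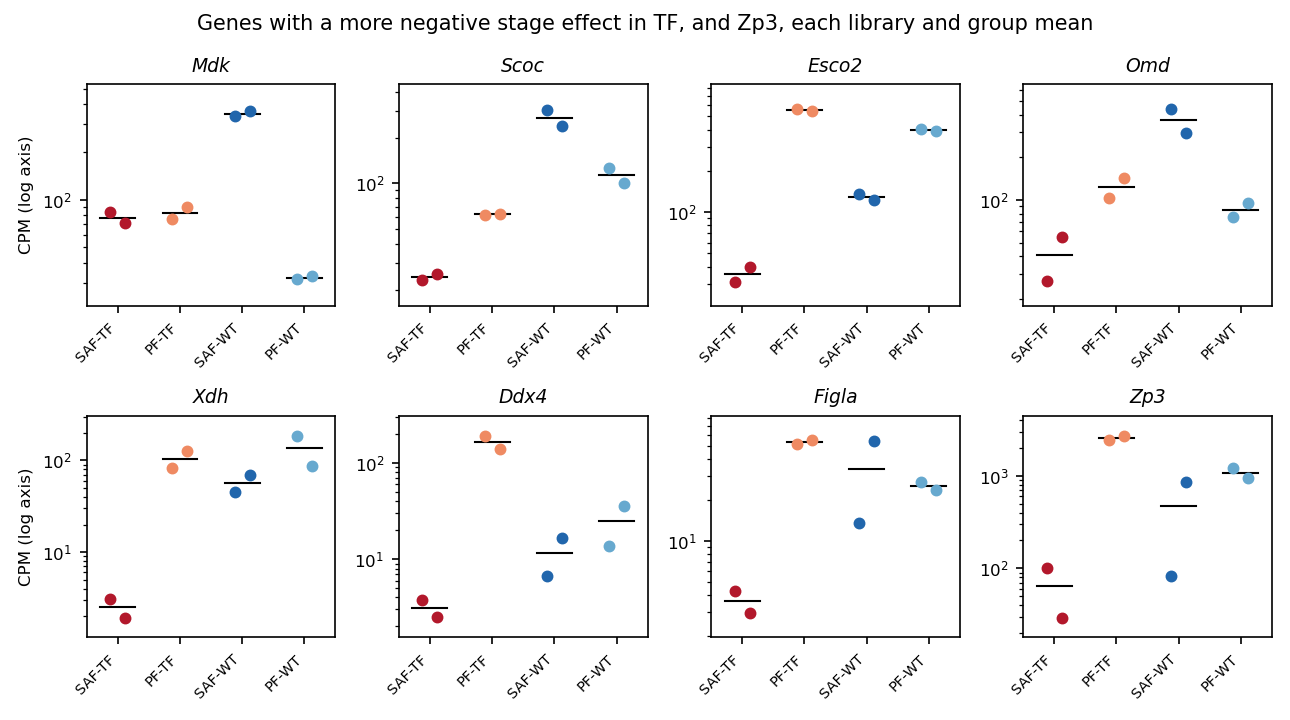
Points are the CPM of each library on a log axis and bars the group mean, for 7 genes with a more negative stage effect in TF and for Zp3, which did not pass. SAF-TF has the lowest mean for each gene but Mdk. Scoc is shown without its pseudogene. The SAF-WT libraries lie far apart for Figla, at 13.4 and 54 CPM, and for Zp3, at 82.6 and 852 CPM.

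Lists of other cells and functions held few called members. Of 20 granulosa genes 0 were called, with a median of 0.65, and Amh, the anti-Mullerian hormone of growing follicles, had 6.05 and 4.62 CPM in SAF-TF and 49.7 and 27.5 CPM in PF-TF, against 0.574 and 1.3 CPM in SAF-WT and 4.86 and 40.9 CPM in PF-WT. It differed by 1.75 ± 1.21 (adjusted p = 0.55) and turned to -0.49 without PF-WT replicate 2. Of 13 theca and interstitial genes, 22 stroma genes and 17 endothelial genes, 0 were called, with medians of -0.08, 1.10 and 0.96. The summed stroma genes had 2886 and 2079 CPM in SAF-TF and 131.7 and 233.6 CPM in PF-TF. In WT they had 10390 and 7302 CPM in SAF-WT and 745.4 and 339.6 CPM in PF-WT. For 48 cytosolic ribosomal protein genes and 41 genes of oxidative phosphorylation, 0 were called, with medians of -0.17 and 0.26. Erythroid genes, 0 of 5 called, differed between the PF-TF libraries, with a summed level of 624.1 and 305.9 CPM in SAF-TF and 9.75 and 337.7 CPM in PF-TF, against 3477 and 3187 CPM in SAF-WT and 5383 and 2023 CPM in PF-WT. In all, 51 lists held 874 tested genes, and 86 of the 118 and 33 of the 44 called genes were in none of them.

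**Figure D4:**
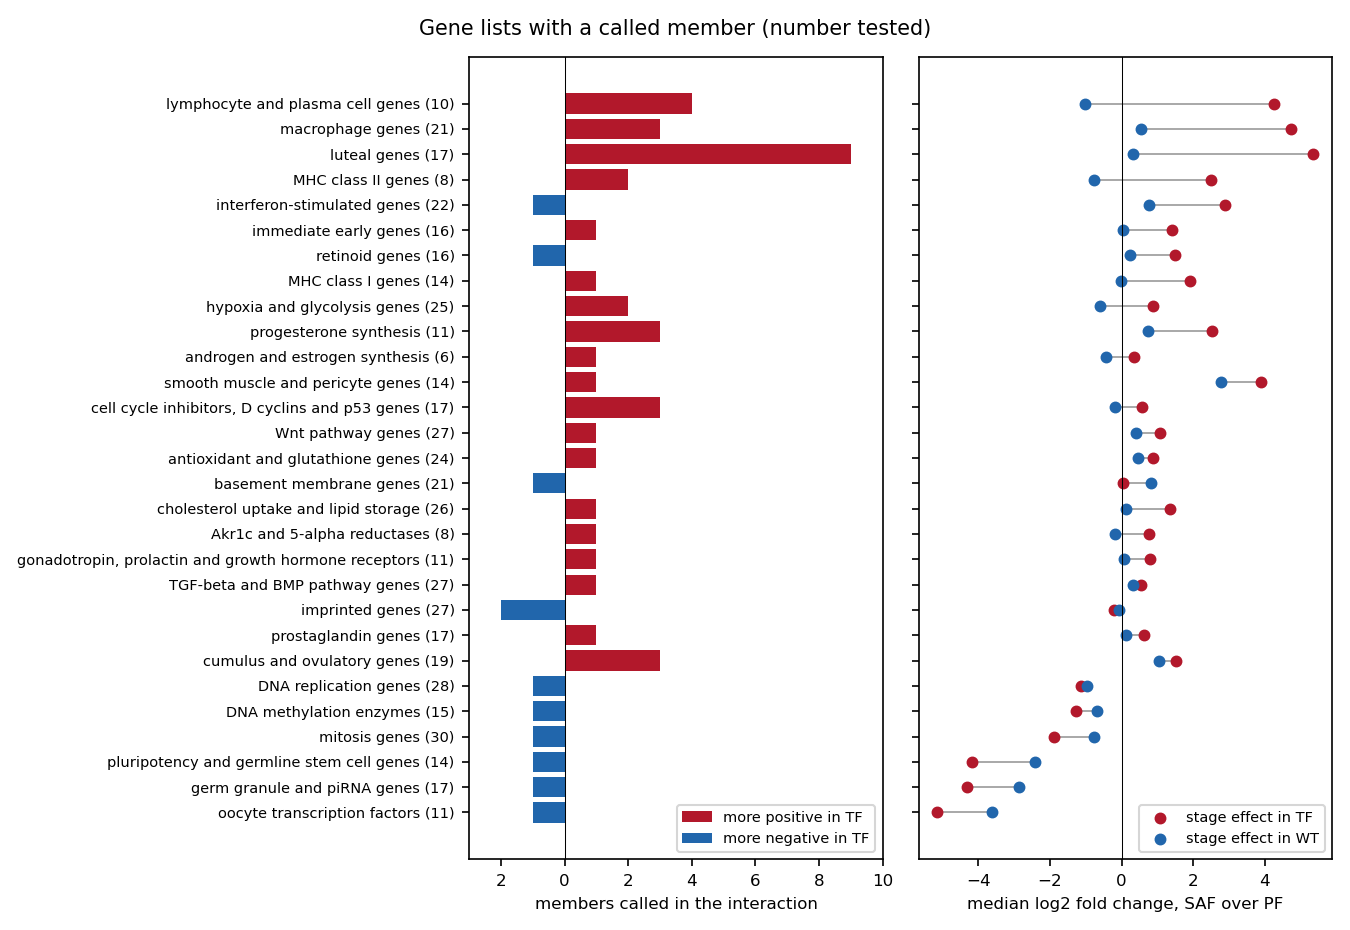
For each of the 29 lists with a called member, the left panel counts the members called in the interaction in each direction, with the number tested in brackets, and the right panel gives the median log2 fold change of SAF over PF in TF (red) and in WT (blue). The luteal list has 9 of 17 members called, with a median of 5.36 in TF against 0.31 in WT.

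Single libraries weighed on the calls. All TF stage differences of each of the 118 and the 44 genes lay on 1 side of all WT ones. A change of sign with a library left out was therefore hardly possible. Each of the 162 called genes kept its sign with every library left out, but 16 of the 118 and 3 of the 44 passed in all 8 such fits, and 4 and 3 passed in none. Those that passed in all such fits in the positive direction included Akr1c18, Abcb1b, Kcnab3, Sfrp4, Star, Gadd45a, Fdx1, Hao2, S100a4, H2-Ab1 and Bhmt. Also among them were Spp1, a secreted phosphoprotein, Gm5506, D630023F18Rik and the pseudogenes Gm3375 and Gm7335, named here after their values were seen. In the negative direction they were Mdk, Esco2 and Omd. Leaving out SAF-WT replicate 1 gave 39 genes more positive and 51 more negative in TF, which put the negative direction ahead. Without SAF-WT replicate 2 it was 19 and 4, without SAF-TF replicate 1 it was 23 and 7, without SAF-TF replicate 2 it was 81 and 16 and without PF-TF replicate 1 it was 49 and 10. Without PF-WT replicate 2 it was 208 and 83, and without PF-TF replicate 2 it was 181 and 37.

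**Figure D5:**
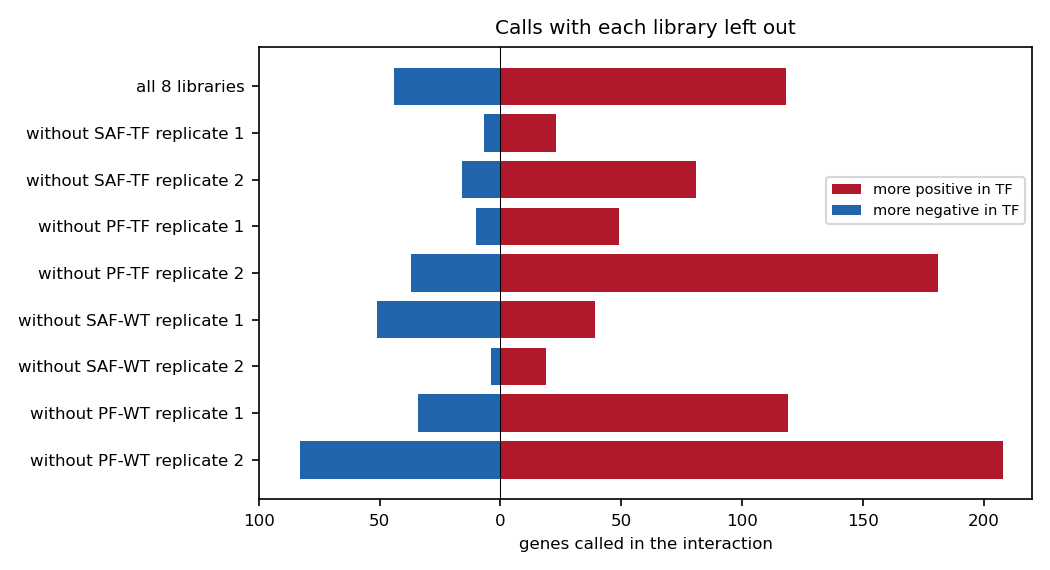
Bars count the genes called in the interaction with all 8 libraries and with each library left out, with genes more positive in TF to the right (red) and more negative to the left (blue). The counts run from 19 and 4 without SAF-WT replicate 2 to 208 and 83 without PF-WT replicate 2.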

How the data were processed

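Single ovarian follicles of 4 groups, with 2 libraries each, were compared. The authors deposited raw read counts per gene in 1 table per source, and the submitters' processing notes name HISAT2 2.0.1 and the build GRCm38. The read counter, its strand setting and the annotation are not named in the labels or file headers. The deposited group means are a signal that the authors scaled by 1 factor per library within each table, per the file headers and values, and they served only to recover those factors. The TF and WT tables, with 22129 and 22138 genes, were joined on 21997 shared genes. Every column belonged to a labelled library.

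Counts were fitted with edgeR 4.0.16 (quasi-likelihood test, TMM factors, R 4.3.3) as 4 group means with 4 residual degrees of freedom. Genes passed filterByExpr with a minimum count of 10 and a minimum total of 15, and p-values were adjusted by Benjamini-Hochberg over 17925 genes, with a threshold of 0.05. The standard error is the size of the log2 difference over the square root of its F. Counting intervals are exact at 95%. PCR reads carry no molecular identifiers, so intervals and floors cover counting error only. The fit was tested on simulated data. Replicates differed by 10.2 to 36.8 times the sampling variance, and each was counted as 1 library.

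Alternatives were other scaling factors, other filters, DESeq2 1.42.0, limma-voom (limma 3.58.1), the replicate number as a block and each library left out. Named genes are up to 12 per direction with the smallest p that reach 10 CPM in a group and keep all TF stage differences on 1 side of all WT ones, leaving out predicted genes and clones, ribosomal protein genes and pseudogenes, up to 4 per gene list, up to 6 per direction among opposite stage effects, and 21 fixed genes of the follicle. Genes named outside this rule are marked. The comparison, its members and the gene lists were chosen with earlier results of these data known.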

Additional observations from a re-analysis of the deposited data

Results flagged for a closer look

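The stage effect differed between TF and WT in 162 genes by the test of the difference itself, 118 more positive and 44 more negative in TF, at adjusted p of 0.05 in edgeR. Up to 12 genes per direction with the smallest p and at least 10 CPM in a group were flagged for that difference, leaving out predicted genes and clones, ribosomal protein genes and pseudogenes. In the positive direction they were Akr1c18 at 10.85, Sfrp4 at 10.01, Kcnab3 at 7.66, Cyp11a1 at 7.24, S100a4 at 7.01, H2-Ab1 at 5.77 and Star at 5.73 on the log2 scale. Abcb1b at 4.93, Rab33a at 4.13, Fdx1 at 3.69, Gadd45a at 3.28 and Hao2 at 3.23 followed. In the negative direction they were Ddx4 at -4.64, Xdh at -4.11, Wfdc3 at -3.83, Omd at -3.69, Zfp33b at -3.69, Mdk at -3.53 and Cntn4 at -3.02. Scoc at -2.61 (without its pseudogene), Esco2 at -2.36, Ifitm1 at -2.29, Ptplad2 at -2.23 and Hmgb2 at -2.09 followed.

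Genes listed for 1 source only could not enter the comparison. The 132 listed for TF only held 2502 counts in all and the 141 listed for WT only 2688, and several stood above the limit that a count of 0 allows. The highest total of each set is given. Vmn2r13, a vomeronasal receptor gene listed for TF only, had 34 and 48 counts in SAF-TF and 9 and 8 in PF-TF, 99 in all. Gm13941, listed for WT only, had 0 and 2 counts in SAF-WT and 95 and 3 in PF-WT, 100 in all. With 2 libraries per group, no single library was tested for standing apart.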

How the results depend on the processing

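No gene called in the interaction changed sign under the 8 other settings or the 8 fits with a library left out, and of 62 called named genes the call was kept in 254 of 496 values with a library left out and in 430 of 494 under other settings. The kept signs with a library left out follow from TF stage differences that all lay on 1 side of the WT ones. Against 162 genes (118 more positive, 44 more negative), DESeq2 called 793 (477 and 316), limma-voom 99 (72 and 27) and the replicate block 74 (62 and 12). With the block, 0 of 21 macrophage and 0 of 10 lymphocyte genes were called. The share of more positive calls was 72.8% in edgeR, 60.2% with DESeq2 and 83.8% with the block. Against 1785 genes between SAF-TF and SAF-WT, DESeq2 called 2771 and the replicate block 1069. Against 39 between PF-TF and PF-WT, the authors' scale factors gave 65, no filter 207, a 10 CPM filter 268, DESeq2 1238, limma-voom 240, the replicate block 6, and a block with the PF-WT numbers crossed, chosen after seeing the data, 37. Replicate numbers were not shown to pair the libraries, since their deviations correlated at -0.12 to 0.113 between groups.

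With a library left out, calls ran from 23 to 291 in the interaction (19 to 208 more positive, 4 to 83 more negative), 116 to 2479 between SAF-TF and SAF-WT, 1 to 865 between PF-TF and PF-WT, 5231 to 8178 with stage in TF and 3119 to 6563 in WT. Among genes that did not pass, Amh ran from -0.490 without PF-WT replicate 2 to 2.575 without PF-WT replicate 1, and Zp1 from -4.053 without SAF-TF replicate 1 to 0.278 without SAF-WT replicate 2. The cause was not tested. A library left out leaves its group with 1 library, assumed to vary like the others. Genes that failed the minimum count of 10 were not tested at this depth.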
